A study of Mus musculus with 50 samples.

Results

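Pparg and 9 further genes of fatty acid handling were followed through the series: Cd36, Fabp4, Fabp5, Angptl4, Dgat1, Dgat2, Acsl4, Plin2 and Scd2, which serve lipid uptake and storage. They were taken by name, with earlier results of these data known, and all 10 of 10 have a row among the 55011 gene symbols of the count table. The study profiled messenger RNA of mouse regulatory T (Treg) cells, a CD4 lineage that needs Foxp3 and holds immune responses in check, in 50 libraries of 16 groups. All mice were labelled male and WT. In the thymus, progenitors of Treg cells were sorted from B6.Cg-Foxp3tm1Kuch/J mice, a Foxp3-GFP reporter strain, at the ages of 5, 12 and 49 days (D5, D12, D49). P1 progenitors carried CD25 and lacked Foxp3, P2 progenitors carried Foxp3 and lacked CD25, and each of the 6 groups has 3 libraries. Outside the thymus, CD4+ Foxp3-GFP+ Treg cells were sorted at week 20 from visceral adipose tissue (VAT, the fat around abdominal organs), ear skin, liver, lung and spleen. These 10 groups come from a Jackson (J) strain on a B6.129(Cg) background with the allele Foxp3tm3(HBEGF/GFP)Ayr, in which Foxp3-expressing cells make the human diphtheria toxin receptor (DTR), and their titles name a PBS arm and a DT (diphtheria toxin) arm with 3 libraries each, or 4 each in VAT. According to the series text both DTR-positive mice and DTR-negative littermates received toxin at week 12, on 3 days, and rested for 8 to 9 weeks. The labels do not settle which arm lost its Treg cells, so the groups are given as PBS-labelled or DT-labelled.

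Pparg encodes PPARγ, a nuclear receptor that binds fatty acids and their derivatives, pairs with a retinoid X receptor (RXR) and switches on genes of lipid uptake and storage. It is the master regulator of fat cell formation and is also known as a defining factor of Treg cells resident in visceral fat. In the pathway these genes serve, fatty acids enter the cell with help from CD36, are carried by FABP proteins, activated to acyl-CoA by enzymes such as ACSL4, joined to diacylglycerol by DGAT1 or DGAT2, and kept in lipid droplets coated by PLIN2.

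PPARγ with RXR binds a direct repeat of AGGTCA with 1 base between the copies, the PPAR response element. RefSeq promoter windows (GRCm38.p6) matched 4 of the 10 genes, with 6 windows: Plin2, Cd36 and Acsl4 with 1 each and Pparg with 3. The 250 bases before each start were searched on both strands for AGGTCANAGGTCA with at most 2 mismatches among its 12 fixed letters. The windows of Plin2 and Cd36 hold such a match, each with 2 mismatches and on the strand opposite to the gene, and they are shown because among the 4 genes searched only these held a match at this limit. A match of this quality occurs in 3.24% of 32851 promoters, and a single AGGTCA in 14%. In Plin2 the match begins 225 bases before the start, and in Cd36 63 bases before it. The 3 windows of Pparg and the window of Acsl4 hold no match at this limit. Capitals mark the matched element and any further single copy of AGGTCA, read 5′ to 3′ on the gene's strand.
Plin2, chr4:86670060-86670309, minus strand: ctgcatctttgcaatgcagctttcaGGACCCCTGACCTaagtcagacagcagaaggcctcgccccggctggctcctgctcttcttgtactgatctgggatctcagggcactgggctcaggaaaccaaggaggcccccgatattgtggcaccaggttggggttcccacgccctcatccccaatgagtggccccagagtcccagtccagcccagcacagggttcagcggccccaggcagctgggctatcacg
Cd36, chr5:17835897-17836146, minus strand: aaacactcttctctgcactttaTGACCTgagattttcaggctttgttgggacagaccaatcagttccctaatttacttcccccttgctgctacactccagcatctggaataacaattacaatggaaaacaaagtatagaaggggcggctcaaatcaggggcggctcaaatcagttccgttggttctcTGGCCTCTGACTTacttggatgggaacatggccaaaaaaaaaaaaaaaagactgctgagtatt

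Each library held 500 to 1000 sorted cells and 2521078 to 6981037 counts. The labels leave out whether each library had its own mouse, and p-values therefore rest on library-to-library spread that may be technical. Foxp3 followed the sort: 4.03 to 18.6 CPM, that is counts scaled to the library total, in P1 libraries, 251 to 836 in P2 and 135 to 516 outside the thymus. Il2ra, which encodes CD25, ran from 100.4 to 138 CPM in P1 and from 10.7 to 38.8 in P2. Some libraries stand apart. At 2521078 counts each, D12 P1 libraries detected 24539 to 29456 genes against 17869 to 18586 in D5 P1, the D49 P2 libraries 18796 to 27176, and ear skin libraries 27089 to 32046 against 20120 to 25789 in spleen. DT-labelled VAT replicate 7 had a summed level of 7 fibroblast markers of 563 CPM, against 2.36 to 7.35 in the other libraries of its group, and of 8 macrophage markers of 119 CPM, against 2.14 to 14.5. In PBS-labelled lung replicate 1 the macrophage sum was 62.6 CPM, against 16.5 and 5.11 in replicates 2 and 3. Levels below are CPM after TMM normalisation over all libraries, and marker sums are plain CPM. In sorted bulk samples, fewer cells with a message and less message per cell cannot be told apart.

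Among PBS-labelled Treg cells, VAT stood out for Pparg and Plin2, lung and liver for Dgat1, and ear skin for Fabp5. The Dgat2 mean was highest in lung, whose libraries overlapped those of ear skin and liver. Against spleen, 6 of the 10 genes were higher in VAT (Pparg, Plin2, Dgat1, Dgat2, Fabp5 and Fabp4) and none lower, where 14.9% of 17731 tested genes passed in either direction. Ear skin had 5 of 10 higher (Dgat2, Fabp5, Dgat1, Pparg and Fabp4) with 23.7% of genes passing. Lung had 3 higher and 1 lower (15.9% of genes), and liver 4 higher and 1 lower (17% of genes). The median log2 fold change of the 10 genes was 2.27 in VAT, 2.01 in ear skin, 1.31 in lung and 0.87 in liver, beside -0.06, 0.14, 0.04 and -0.02 over all tested genes. The same spleen libraries serve all 4 comparisons. The 10 genes were chosen with earlier results of these data known. Their counts and medians beside those of all genes therefore describe the list and are no independent test. All p-values here are from the edgeR quasi-likelihood F test with Benjamini-Hochberg adjustment over all tested genes, with a threshold of 0.05.

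**Figure D1:**
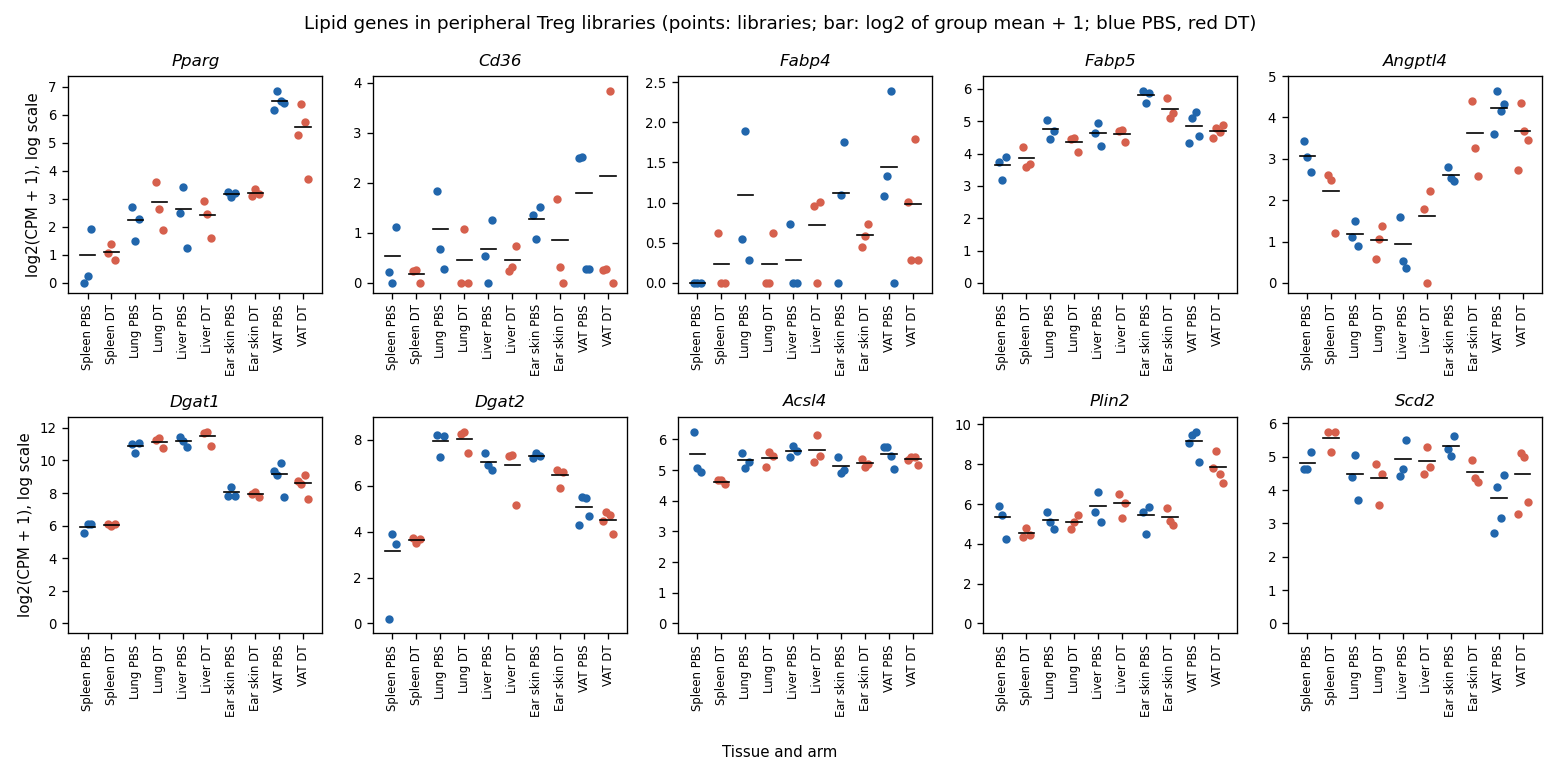
Level of each gene in every peripheral Treg library, as log2(CPM + 1) on the y axis, by tissue and arm on the x axis. Points are libraries, blue for PBS and red for DT, and bars are log2 of the group mean + 1. By group mean, Pparg and Plin2 are highest in VAT, Dgat1 in liver and lung, Dgat2 in lung, and Fabp5 in ear skin.

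Pparg, the receptor gene, read 70.7, 113, 88.9 and 83.5 CPM in the 4 PBS-labelled VAT libraries and 0, 0.196 and 2.84 in spleen. Every VAT library lay far above every spleen library, and Pparg rose by 6.62 ± 0.743 (log2 fold change ± SE, edgeR adjusted p = 3.86e-08). The size of this fold rests on 12 counts in spleen replicate 3: without it the log2 fold change was 9.59, and without spleen replicate 1 it was 5.92. Ear skin held 8.53, 7.35 and 8.21 CPM, a narrow range above all spleen libraries (log2 fold change 3.26 ± 0.770, adjusted p = 0.00183). The ear skin value was 2.53 without spleen replicate 1 and 6.21 without spleen replicate 3, and the call was lost when only the compared libraries were fitted (adjusted p = 0.065). Liver libraries spread from 1.39 to 9.76 CPM and overlapped spleen, with a log2 fold change of 2.60 ± 0.787 (adjusted p = 0.0194) that no longer passed without liver replicate 2, without spleen replicate 1 or without spleen replicate 2 (adjusted p = 0.213, 0.143 and 0.0977). That call was also lost when only the compared libraries were fitted (adjusted p = 0.221), and without spleen replicate 3 the value was 5.56. Lung, at 1.81 to 5.57 CPM, did not pass (2.12 ± 0.814, adjusted p = 0.0741), but passed without spleen replicate 3, with DESeq2 and without a filter on low counts (adjusted p = 0.00192, 0.0254 and 0.00112). The highest lung library, replicate 1, was the one with the high macrophage sum (62.6 CPM). Lyz2 led the macrophage markers in PBS-labelled lung, at a mean of 17.4 CPM, before Cd68 (4.67) and Csf1r (3.73). Mrc1, Adgre1, Cd14, C1qa and C1qb averaged 1.66, 1.53, 1.31, 0.255 and 0.173 CPM. The part of cells with these markers in the Pparg level was not tested. VAT also exceeded ear skin, by 3.36 ± 0.584 (adjusted p = 0.000133), with no overlap. In the order of the 10 peripheral group means, both VAT groups came first and overlapped each other, did not overlap the next group (DT-labelled ear skin), and the 6 groups of ear skin, lung and liver then each overlapped the next. The lowest of those, PBS-labelled lung, did not overlap DT-labelled spleen but did overlap PBS-labelled spleen, and the spleen groups came last at means of 1.16 and 1.01 CPM.

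Reads over Pparg could include its antisense neighbour Gm44079, which lies within the gene (mm10, GENCODE M21: Pparg at chr6:115360951-115490399, plus strand), because the strand setting of the counting is not given in the sources used here. Gm44079 had 2 to 16 counts in PBS-labelled VAT libraries, against 378 to 522 for Pparg. Of 14 other receptors and cofactors of the PPAR and RXR group, 11 were tested, and 4 were higher and 1 lower in VAT than in spleen. Nrip1, a nuclear receptor co-repressor, rose from 74.2 to 158 CPM (log2 fold change 1.1 ± 0.248, adjusted p = 0.0016). The co-repressor Ncor1 (0.56, adjusted p = 0.00545) and the partner receptor Rxra (1.23, adjusted p = 0.0256) also rose. In ear skin Rxra rose further from spleen, from 12.5 to 53.2 CPM (2.22, adjusted p = 0.000105), and Nrip1 was higher in VAT than in ear skin (1.81, adjusted p = 8.11e-06). Neither list median departed far from all genes (-0.07 in VAT and -0.14 in ear skin against spleen).

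The fatty acid uptake gene Cd36 and the adipocyte fatty acid carrier gene Fabp4, both textbook PPARγ targets in fat cells, stayed near 0. Cd36 gave 4.68, 4.76, 0.211 and 0.207 CPM in PBS-labelled VAT and at most 1.18 CPM in spleen, so that 2 of 4 VAT libraries lay above spleen and 2 within its range (2.47 ± 1.54, adjusted p = 0.32). In the DT-labelled VAT group, 48 of the 50 Cd36 counts came from replicate 7, the library with the high fibroblast and macrophage sums. Fabp4 had 0 counts in all 3 PBS-labelled spleen libraries and 6, 7, 20 and 0 counts in VAT. Set against a limit of 3 counts over the spleen group, it was at least 8.42-fold higher in VAT (adjusted p = 0.0358) and at least 6.78-fold higher in ear skin (adjusted p = 0.0433). Both Fabp4 calls were lost on leaving out any 1 of the 3 spleen libraries, VAT replicate 2 or 3, or ear skin replicate 2 or 3 (adjusted p = 0.0508 to 0.138). No group mean of either gene exceeded 3.41 CPM.

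Fabp5, which encodes the fatty acid carrier found in skin and in many lymphocytes, was highest in ear skin. Its PBS-labelled libraries held 59.7, 46.6 and 57.7 CPM there, 19.1, 33.1, 37.6 and 22.3 in VAT, 31.5, 21.1 and 24.9 in lung, 23.7, 29.5 and 18 in liver and 12.3, 8.03 and 14.0 in spleen. All 4 tissues lay wholly above spleen. The log2 fold changes were 2.39 ± 0.280 in ear skin (adjusted p = 5.39e-08), 1.32 ± 0.262 in VAT (adjusted p = 0.000387), 1.23 ± 0.277 in lung (adjusted p = 0.00165) and 1.1 ± 0.277 in liver (adjusted p = 0.00467), the last lost without liver replicate 2 (adjusted p = 0.0734). Ear skin exceeded VAT without overlap (VAT lower by a log2 fold change of -1.07 ± 0.243, adjusted p = 0.00286). Ear skin libraries also had higher sums than spleen of the 7 keratinocyte markers (13.3 to 21.9 against 3.58 to 10 CPM, with 0 to 1 of 7 at 0), of 7 fibroblast markers (17.5 to 26.7 against 2.98 to 9.54) and of 6 dendritic cell markers (51.0 to 80.6 against 16.3 to 32.2, led by Zbtb46 at 35.8 and Xcr1 at 12.3), and their part in the Fabp5 level was not tested. Krt5 and Krt14, the defining keratins of the epidermal base, averaged 1.98 and 3.58 CPM in ear skin. A processed copy, Fabp5l2, had 5 to 6 counts in ear skin libraries, where Fabp5 had 165 to 231.

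Angptl4, a secreted inhibitor of lipoprotein lipase and a known PPAR target, ran in another order. Its libraries read 11, 23.8, 16.7 and 19.2 CPM in PBS-labelled VAT, 9.70, 7.24 and 5.44 in spleen, 5.95, 4.80 and 4.50 in ear skin, 1.16, 1.81 and 0.866 in lung, and 2.01, 0.454 and 0.277 in liver. Lung and liver lay wholly below spleen: Angptl4 fell by 2.5 on the log2 scale in lung (SE 0.715, adjusted p = 0.0133) and by 2.90 in liver (SE 0.735, adjusted p = 0.005). The lung call was lost without lung replicate 1 or lung replicate 3 (adjusted p = 0.0505 and 0.0602), and without liver replicate 1 the liver value was -4.22. VAT lay wholly above spleen, yet the difference did not pass (1.27 ± 0.581, adjusted p = 0.15). Of 15 other genes of lipid uptake and transport, 11 were tested, and 0 were higher and 1 lower in VAT than in spleen, with a median log2 fold change of 0.35. The one that passed was Lipa, the lysosomal lipase, which fell by 1.22 (188 to 78.4 CPM, adjusted p = 1.07e-05) and in ear skin by 1.58.

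Acsl4, whose enzyme prefers arachidonic acid, passed in none of the 4 tissues against spleen. Its 5 PBS-labelled group means ran from 33.9 to 47.9 CPM, and all 4 tissues overlapped spleen. The log2 fold changes from spleen lay between -0.28 and 0.13 (adjusted p = 0.468 to 0.952). Spleen libraries read 74.9, 32.3 and 29.3 CPM, so the spleen mean of 45.5 and part of the overlap rest on replicate 1. All liver libraries (42.0, 53.6 and 48.2 CPM) lay above spleen replicates 2 and 3. The 95% interval of the VAT difference was -0.444 to 0.516. Of 7 other activating enzymes, all 7 were tested and 2 rose in VAT: Acsbg1 (0.94 ± 0.167, 146 to 273 CPM, adjusted p = 9.42e-05) and Acss2, which makes acetyl-CoA from acetate (1.02, 81.6 to 163 CPM, adjusted p = 0.00585). In ear skin 3 of 7 fell, among them Acss2 (-1.31) and Acss1 (-1.80), and VAT exceeded ear skin for both (2.32 and 1.49).

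Scd2, a stearoyl-CoA desaturase that makes monounsaturated fatty acids, was the only one of the 10 genes with its lowest PBS-labelled mean in VAT. VAT libraries held 5.61, 16.2, 8.03 and 20.9 CPM and spleen libraries 23.6, 23.9 and 34.3. The groups did not overlap, and the difference from spleen did not pass (-1.08 ± 0.421, adjusted p = 0.0833). It passed without VAT replicate 4 (-1.50, adjusted p = 0.0187) and without a filter on low counts (adjusted p = 0.00412). With replicate number added to the fit as a block it passed too (-1.48, adjusted p = 0.0168). The difference from ear skin, at 36.7, 31.6 and 48.2 CPM, passed (-1.71 ± 0.421, adjusted p = 0.0057). The related Scd1 averaged 19.3 CPM in ear skin, 0.558 in spleen and 0.103 in VAT, and was higher in ear skin than in spleen (adjusted p = 0.00212) and lower in VAT than in ear skin (adjusted p = 0.000197). Of 12 genes of fatty acid synthesis and desaturation, all 12 were tested, and 4 rose and 0 fell in VAT against spleen, with a median of 0.50. Among them were Srebf1, the lipogenic transcription factor (0.67, 115 to 182 CPM), and Elovl6, a fatty acid elongase (1.02, 21.2 to 42.6 CPM). In lung 3 of 12 rose, with Elovl5 at 955 CPM against 233 in spleen (2.07) and Elovl6 at 105 against 21.2 (2.35).

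Dgat1 and Dgat2 encode the 2 enzymes that complete triglyceride synthesis. Dgat1 reached the highest level of the 10 genes. It read 46.2, 66.9 and 67.6 CPM in spleen, 228, 333 and 223 in ear skin, 646, 553, 910.0 and 214 in VAT, 2040.4, 1398 and 2155 in lung, and 2820.2, 2364 and 1791 in liver, all PBS-labelled. No library of the 4 tissues overlapped spleen. The log2 fold changes were 5.30 ± 0.393 in liver (adjusted p = 7.4e-12), 4.99 ± 0.387 in lung (adjusted p = 2.91e-11), 3.29 ± 0.350 in VAT (adjusted p = 1.41e-08) and 2.25 ± 0.347 in ear skin (adjusted p = 7.37e-06). VAT and ear skin overlapped, and the call between them (1.04 ± 0.314, adjusted p = 0.0245) was lost in 7 of 12 alternatives, among them leaving out ear skin replicate 1 or 3 or VAT replicate 1 or 3 (adjusted p = 0.0623 to 0.117). The neighbouring gene Hsf1 ends 101 bases from Dgat1 on the other strand (Dgat1 at chr15:76502015-76511953, minus strand). Hsf1 ran from 87.2 to 127 plain CPM in PBS-labelled lung and from 154 to 199 plain CPM in spleen.

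Dgat2 read 294, 150.0 and 283 CPM in PBS-labelled lung, 146, 168 and 156 in ear skin, 171, 117 and 102 in liver, 18.5, 43.9, 43.5 and 24.6 in VAT, and 0.162, 13.7 and 9.93 in spleen. Every tissue lay above spleen, but VAT was the nearest to it, while Dgat1 was nearest in ear skin. The log2 fold changes were 5.00 ± 0.583 in lung (adjusted p = 1.12e-07), 4.45 ± 0.574 in ear skin (adjusted p = 3.31e-07), 4.09 ± 0.568 in liver (adjusted p = 2.29e-06) and 2.08 ± 0.532 in VAT (adjusted p = 0.00545). They rest in part on spleen replicate 1 with 1 Dgat2 count. Without it the values were 4.36, 3.79, 3.45 and 1.44, and without spleen replicate 2 they were 5.76, 5.19, 4.85 and 2.84. The VAT call was lost when only VAT and spleen libraries were fitted (adjusted p = 0.143). VAT lay below ear skin without overlap (-2.38 ± 0.456, adjusted p = 0.000475). Across the 10 peripheral group means the Pearson correlation of log2(CPM + 1) between Dgat1 and Dgat2 was 0.80, a description over groups that share tissues.

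Of 13 other genes of triglyceride synthesis, 11 were tested, and 3 rose and 1 fell in VAT against spleen (median 0.40). Agpat4, an acyltransferase of the earlier steps, rose in each of the 4 tissues, from 32.7 CPM in spleen to 76.7 to 86.7 (log2 fold changes 1.34 to 1.46). Its relative Agpat3 fell in each, to between 57.0 and 121 CPM (log2 fold changes -0.68 in lung, -0.78 in VAT, -0.89 in liver and -1.69 in ear skin).

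Plin2, the droplet coat gene, was high only in VAT among the 5 tissues. It read 537, 711, 790.4 and 279 CPM in PBS-labelled VAT, 58.4, 42.3 and 18 in spleen, 47.1, 33.4 and 26.2 in lung, 47.8, 95.3 and 33.5 in liver, and 48.4, 21.8 and 57.7 in ear skin. The lowest VAT library lay above the highest library of the other tissues, and the other 4 tissues overlapped one another. Plin2 rose in VAT by 3.90 ± 0.439 against spleen (adjusted p = 4.09e-08) and by 3.67 ± 0.437 against ear skin (adjusted p = 2.96e-07), while in lung, liver and ear skin the differences from spleen were -0.10, 0.63 and 0.24 (adjusted p = 0.92, 0.345 and 0.715). The difference between lung and spleen has a 95% interval of -0.926 to 0.731. Of 16 other genes of droplet coat and lipolysis, 13 were tested, and 3 rose and 2 fell in VAT against spleen (median 0.16). Hilpda, a droplet protein that inhibits the lipase encoded by Pnpla2, had the largest rise of the list, from 27.4 to 373 CPM (3.79, adjusted p = 1.92e-08). It rose less in liver (2.90, 199 CPM), lung (1.99, 105 CPM) and ear skin (1.70, 82.0 CPM), and VAT exceeded ear skin (2.09, adjusted p = 0.000206). Plin3, another coat gene, rose by 0.79 in VAT, and the hormone-sensitive lipase gene Lipe fell by 0.97 (37.1 to 18.4 CPM).

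**Figure D2:**
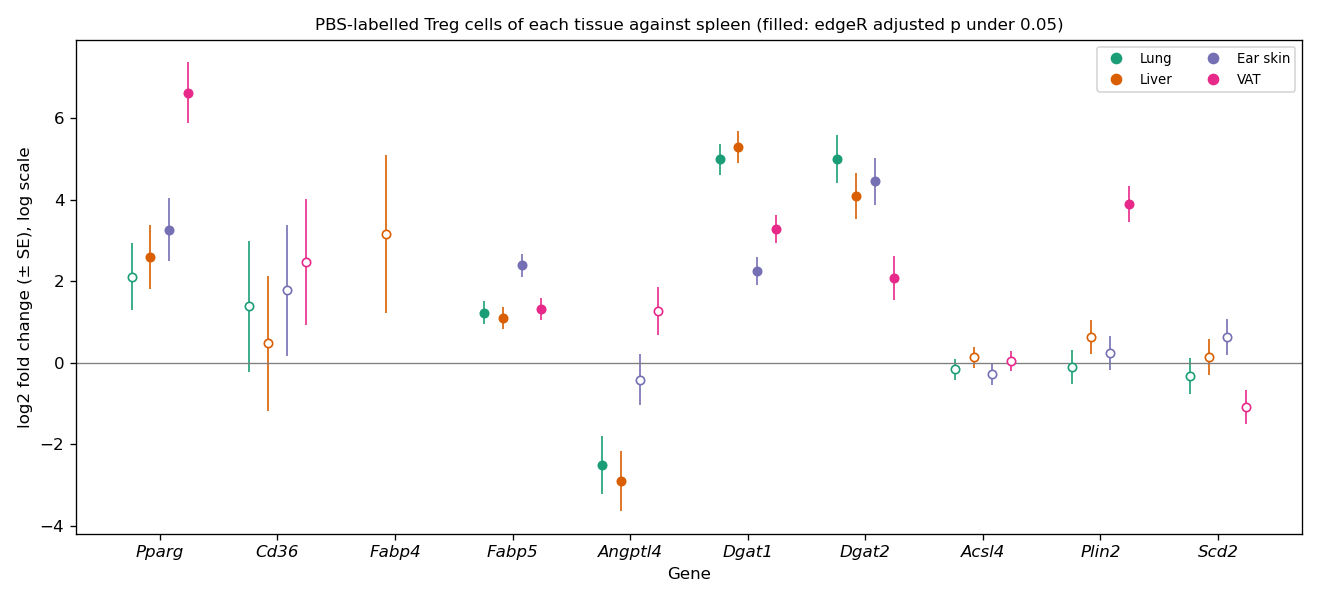
Log2 fold change (± SE, y axis) of each gene (x axis) in PBS-labelled lung, liver, ear skin and VAT Treg cells against PBS-labelled spleen. Filled points passed the edgeR test at an adjusted p of 0.05, and Fabp4 is left out for lung, ear skin and VAT because spleen has 0 counts. Pparg (6.62) and Plin2 (3.90) stand highest in VAT and Dgat1 in liver (5.30) and lung (4.99).

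Markers of fat cells did not rise with Pparg and Plin2. The summed level of 10 adipocyte markers was 18.3 to 29.1 CPM in PBS-labelled VAT, below the 35.2 to 53.6 CPM of spleen, with 3 to 8 of the 10 at 0 in a VAT library. Adipoq (adiponectin) averaged 0.193 CPM in VAT and Plin1, the coat protein of fat cell droplets, 0.156, and most of the sum came from Lipe (18.4 CPM) and Plin4 (4.73 CPM). The 8 macrophage markers summed to 2.81 to 11.4 CPM in VAT and 9.75 to 13.3 in spleen. The 5 mesothelial markers summed to 107 to 168 CPM in VAT and 7.31 to 9.29 in spleen, through Lrrn4 alone (135 CPM), while Msln, Upk3b, Wt1 and Krt19 each averaged under 0.5 CPM in VAT. In liver the 6 hepatocyte markers summed to 8.40 to 21.1 CPM against 0 to 1.43 in spleen, led by Alb (8.01 CPM), and 6 dendritic cell markers summed to 60.4 to 79.5 in lung and 45.4 to 48.4 in liver, against 16.3 to 32.2 in spleen. Most of that sum was Zbtb46 (60.1 CPM in lung, 40.6 in liver and 21.2 in spleen), while Clec9a, Flt3 and Siglech each averaged under 1.1 CPM in the 3 tissues. Xcr1 was higher in lung (6.46 CPM) and liver (7.76) than in spleen (0.907), and so was Itgax (5.84 and 1.43 against 0.306). The part of cells with these hepatocyte and dendritic cell markers in the lung and liver levels of Dgat1 and Dgat2 was not tested.

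Per kilobase of the union of all annotated exons, a rough scale between genes, Dgat1 and Plin2 were highest of the 10 in PBS-labelled VAT Treg cells, at 190.0 and 165 CPM per kilobase. This union can be longer than the message and then understates a gene. For Fabp4 it covers the whole gene (4489 bases), and for Fabp5 it is 3567 bases, so the order of the genes is not settled by it. Pparg followed at 30.1, then Dgat2 at 10.6, Acsl4 at 8.37, Fabp5 at 7.86, Angptl4 at 4.99, Scd2 at 2.32, Cd36 at 0.686 and Fabp4 at 0.382. On the same scale Dgat1 led in every PBS-labelled tissue, with 761 CPM per kilobase in liver and 610.2 in lung, 85.6 in ear skin and 19.7 in spleen, where Plin2 came next at 11.3.

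In VAT against ear skin, 3 of the 10 genes were higher (Pparg, Plin2 and Dgat1) and 3 lower (Dgat2, Fabp5 and Scd2), where 13.8% of tested genes passed. In the DT-labelled arm, a separate set of libraries, VAT exceeded spleen for 5 of the 10 genes (8.85% of tested genes passed) and ear skin exceeded spleen for 5 (22.1%). Pparg, Plin2 and Dgat1 again lay wholly above spleen in VAT, with log2 fold changes of 5.29 ± 0.705, 3.43 ± 0.438 and 2.59 ± 0.339 (adjusted p = 1.74e-06, 8.3e-07 and 1.24e-06). Ear skin again exceeded spleen for Dgat2 (3.03 ± 0.543, adjusted p = 8.6e-05), Dgat1 (2.00, adjusted p = 4.92e-05), Fabp5 (1.72, adjusted p = 1.75e-05) and Pparg (2.92, adjusted p = 0.00444). Acsl4 passed in both tissues (0.78 and 0.74, adjusted p = 0.0487 and 0.0467), with spleen at 24.4, 24.4 and 22.2 CPM. Both Acsl4 calls were lost on leaving out any 1 library of the groups compared (adjusted p up to 0.177), and Fabp5 in VAT (0.93, adjusted p = 0.0175) was lost without spleen replicate 5 or 6 or VAT replicate 6 or 8 (adjusted p up to 0.14). Hilpda was the 1 gene of 13 tested droplet genes that passed in DT-labelled VAT (3.53, 21.3 to 241 CPM).

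Comparing DT-labelled with PBS-labelled Treg cells of the same tissue, none of the genes that could be tested passed the edgeR test in any of the 5 tissues. Cd36 and Fabp4 were too low to be tested in any tissue, Pparg in spleen, and Angptl4 in lung and liver. In spleen 0 of 7 tested genes passed (0% of all tested genes, 2 of the 7 at an unadjusted p under 0.05). In lung and liver 0 of 7 passed (0% and 0% of all genes, 0 of the 7 at an unadjusted p under 0.05 in both). Over all genes these 3 tissues had 358, 412 and 525 genes at an unadjusted p under 0.05, and DESeq2 called 0, 2 and 13. In ear skin 0 of 8 passed (0.411% of genes, 3 of the 8 at an unadjusted p under 0.05), and in VAT 0 of 8 (0.124%, 2 of the 8). Over all genes, 1164 of 12653 in ear skin and 955 of 12067 in VAT were at an unadjusted p under 0.05. DESeq2 called 1 of the 10 genes, Dgat2 in ear skin, and 0 in the other 4 tissues.

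In VAT, DT-labelled libraries held Plin2 at 223, 401, 181 and 131 CPM and Pparg at 38.0, 81.5, 52.5 and 12.1 CPM. In both genes the means were lower than in the PBS-labelled group, but the highest DT-labelled library (replicate 6) reached into the PBS-labelled range. The log2 fold change was -1.27 ± 0.344 for Plin2 (unadjusted p = 0.00319, edgeR adjusted p = 0.322) and -0.91 ± 0.399 for Pparg (unadjusted p = 0.0423, adjusted p = 0.614). Across the alternatives run, the adjusted p of Plin2 ranged from 0.0889 to 0.668 and that of Pparg from 0.344 to 0.946, except without a filter on low counts, where Plin2, Pparg and Dgat1 passed (adjusted p = 4.57e-17, 7.11e-05 and 0.00738). The mesothelial marker sum was 29.4 to 62.5 CPM in DT-labelled against 107 to 168 in PBS-labelled VAT, through Lrrn4 alone (44.8 against 135 CPM). Msln, Upk3b, Wt1 and Krt19 averaged 0.055 to 0.553 CPM in DT-labelled and 0.047 to 0.419 in PBS-labelled VAT. The part of this difference in the Plin2 and Pparg values was not tested. Without replicate 7, the library with the high fibroblast sum, the log2 fold changes of Plin2 and Pparg were -1.18 and -1.01. Dgat1 (-0.53), Dgat2 (-0.52), Angptl4 (-0.56) and Scd2 (0.78) all overlapped between arms. For VAT minus spleen, the difference of the arm effects passed for 0 of the 10 genes (0.0169% of all genes passed, 1 of the 10, Acsl4, at an unadjusted p under 0.05, DESeq2 called 0 of the 10). For Pparg it was -1.33 ± 1.06 and for Plin2 -0.48 ± 0.551.

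In ear skin, Dgat2 read 103, 58.7 and 96.1 CPM in DT-labelled libraries against 146, 168 and 156, without overlap, yet missed the threshold (-0.86 ± 0.192, edgeR adjusted p = 0.0595). It passed with DESeq2 (adjusted p = 0.00726) and with no filter on low counts (adjusted p = 0.00938). Scd2 in ear skin held 28.8, 19.5 and 18.1 CPM against 36.7, 31.6 and 48.2, again without overlap (-0.78 ± 0.263, adjusted p = 0.274). Pparg in ear skin was nearly the same in both arms, 7.67, 9.10 and 8.04 CPM against 8.53, 7.35 and 8.21, with a 95% interval of the log2 difference of -0.753 to 0.908. In spleen, Acsl4, Angptl4 and Scd2 did not overlap between the arms, but none passed (-0.91 ± 0.332, -1.0 ± 0.572 and 0.76 ± 0.287, adjusted p = 0.933 for each). How many of all genes separate between the arms in this way was not counted, in spleen or in ear skin. Dgat1 in liver (0.27 ± 0.206) and lung (0.25 ± 0.173) overlapped between arms.

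**Figure D3:**
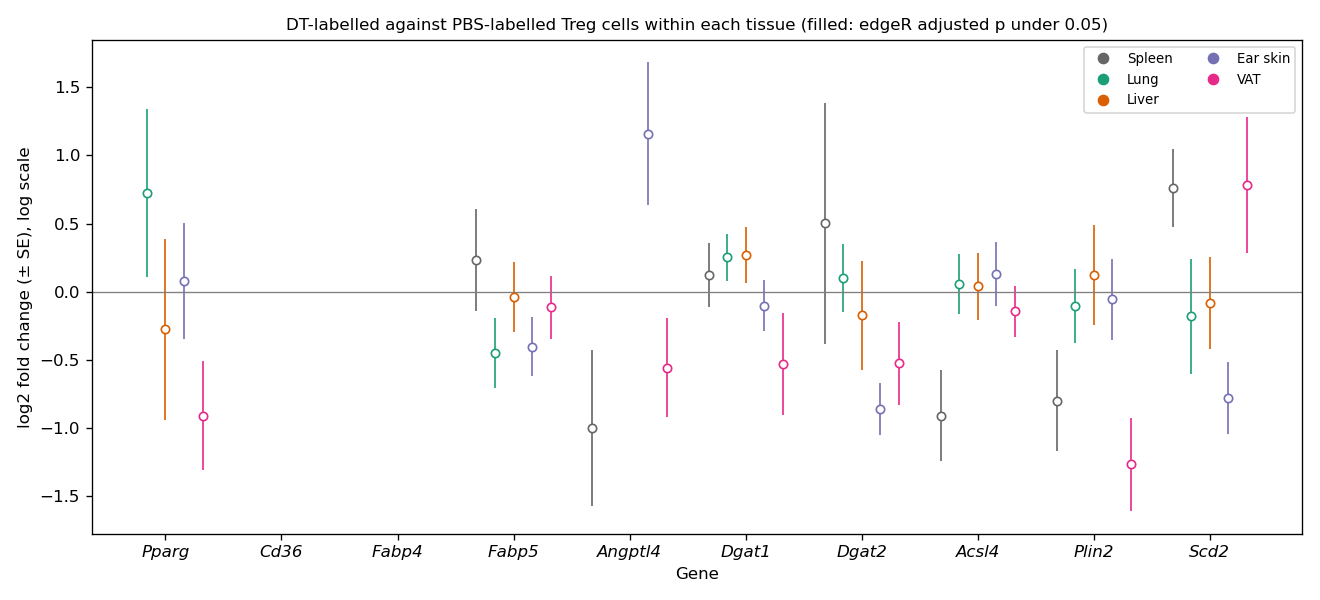
Log2 fold change (± SE, y axis) of each tested gene (x axis) in DT-labelled against PBS-labelled Treg cells, fitted within each of 5 tissues. All points are open because none passed the edgeR test at an adjusted p of 0.05. Cd36 and Fabp4 were too low to be tested in any tissue, Pparg in spleen, and Angptl4 in lung and liver. Plin2 (-1.27) and Pparg (-0.91) are lowest in VAT.

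By likeness of pattern over the 10 peripheral group means, the 5 genes closest to Pparg among 9532 were Pacs1, Ltb4r1, Rapsn, Frmd5 and Iqcn, with Pearson correlations of log2(CPM + 1) from 0.97 to 0.98. All 5 were highest in PBS-labelled VAT, with Ltb4r1, a leukotriene B4 receptor, at 717 CPM. Plin2 was most like Dnajb13, Serpinb6a, Cxcl3, Anxa7 and Elmo2 (0.96 to 0.97). Dgat1 was most like Rnf125, Sgk1, Eif1, Azin1 and Isy1 (0.98 to 0.99), and Dgat2 most like Acacb, an acetyl-CoA carboxylase, with Ncapg2, Tex2, Hopx and Zdhhc23 (0.98 to 0.99). Fabp5 was most like Msrb3, Hlf, Anxa11os, Lnpk and Ankrd6 (0.96 to 0.98). The best matches of the remaining members searched were Appl1 (0.97) followed by Ubb at 0.90 for Acsl4, and Tmem259 (0.89) for Scd2. Among the 8 members correlated with one another, which leave out Cd36 and Fabp4, Pparg and Plin2 were the most alike pair (0.91). These correlations describe 10 points that share tissues, strain and depth.

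In thymic progenitors Pparg, Cd36 and Fabp4 were near 0, and Fabp5, Angptl4, Plin2 and Scd2 were the genes that moved. Pparg had 0 counts in all 6 D5 libraries, 13, 12 and 3 counts in D12 P1, and at most 10 counts in any other thymic library. Against a limit of 3 counts over the D5 P1 group it was at least 11.7-fold higher in D12 P1 (adjusted p = 0.039), a call lost in 7 of 10 alternatives, including leaving out any 1 of the 6 libraries (adjusted p = 0.065 to 0.121). The D12 P1 libraries are those with many detected genes, and their sums were higher than in D5 P1 for 7 fibroblast markers (10.8 to 16.3 against 0.800 to 4.81 CPM) and 6 hepatocyte markers (23.7 to 27.2 against 5.44 to 7.29 CPM). Most of the hepatocyte sum was Ttr (19.0 against 5.93 CPM, and 8.04 to 17.7 in the other thymic groups), with Alb at 1.53 CPM in D12 P1. Their part in the Pparg counts was not tested. Of the 10 genes 8 could be tested in the thymus, and Cd36 and Fabp4 were too low.

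With age in P1, D12 against D5 had 2 of 8 higher and 1 lower (18.3% of 14696 tested genes passed), and D49 against D5 had 1 higher (10.6%). Plin2 held 20.7, 21 and 26.8 CPM at D5, 48.8, 39.7 and 37.1 at D12, and 60.5, 54.9 and 43.8 at D49. Both older groups lay wholly above D5, by 1.00 ± 0.197 at D12 (adjusted p = 0.00277) and 1.2 ± 0.197 at D49 (adjusted p = 0.000246). Fabp5 fell from 53.7, 54.6 and 48.0 CPM at D5 to 13.2, 10.8 and 11.8 at D12 (-2.0 ± 0.349, adjusted p = 0.00121) and stood between them at D49, at 30.7, 23.0 and 27.6 (-0.95 ± 0.332, adjusted p = 0.0744). Scd2 kept above 89 CPM in every P1 library and Dgat1 between 20.2 and 42.8.

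With age in P2, D12 against D5 had 0 of 8 passing with edgeR (5.16% of genes, 4 of the 8 at an unadjusted p under 0.05 beside 2408 of all 14696 genes, and 1, Fabp5, with DESeq2), and D49 against D5 had 1 higher and 2 lower (25.8% of genes). Plin2 rose from 16.1, 16.6 and 17.6 CPM at D5 to 32.4, 28.1 and 31.8 at D49 (1.01 ± 0.205, adjusted p = 0.00145). Fabp5 fell from 13.4, 23.2 and 21.6 CPM to 4.87, 0.592 and 0.403 (-3.28 ± 0.450, adjusted p = 2.25e-05). Without D49 P2 replicate 1 the Fabp5 value was -5.08, and without both replicates 2 and 3, an alternative added once the values were known, it was -2.01 (adjusted p = 0.00155). Angptl4 fell from 15.3, 11.3 and 7.32 CPM to 1.15, 1.48 and 0 (-3.67 ± 0.573, adjusted p = 9.94e-05), and the value was -4.37 without replicate 2 and -3.00 without replicate 3. D49 P2 libraries had macrophage marker sums of 23.0, 106 and 139 CPM against 2.08 to 8.84 in D5 P2, and their part in these falls was not tested.

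**Figure D4:**
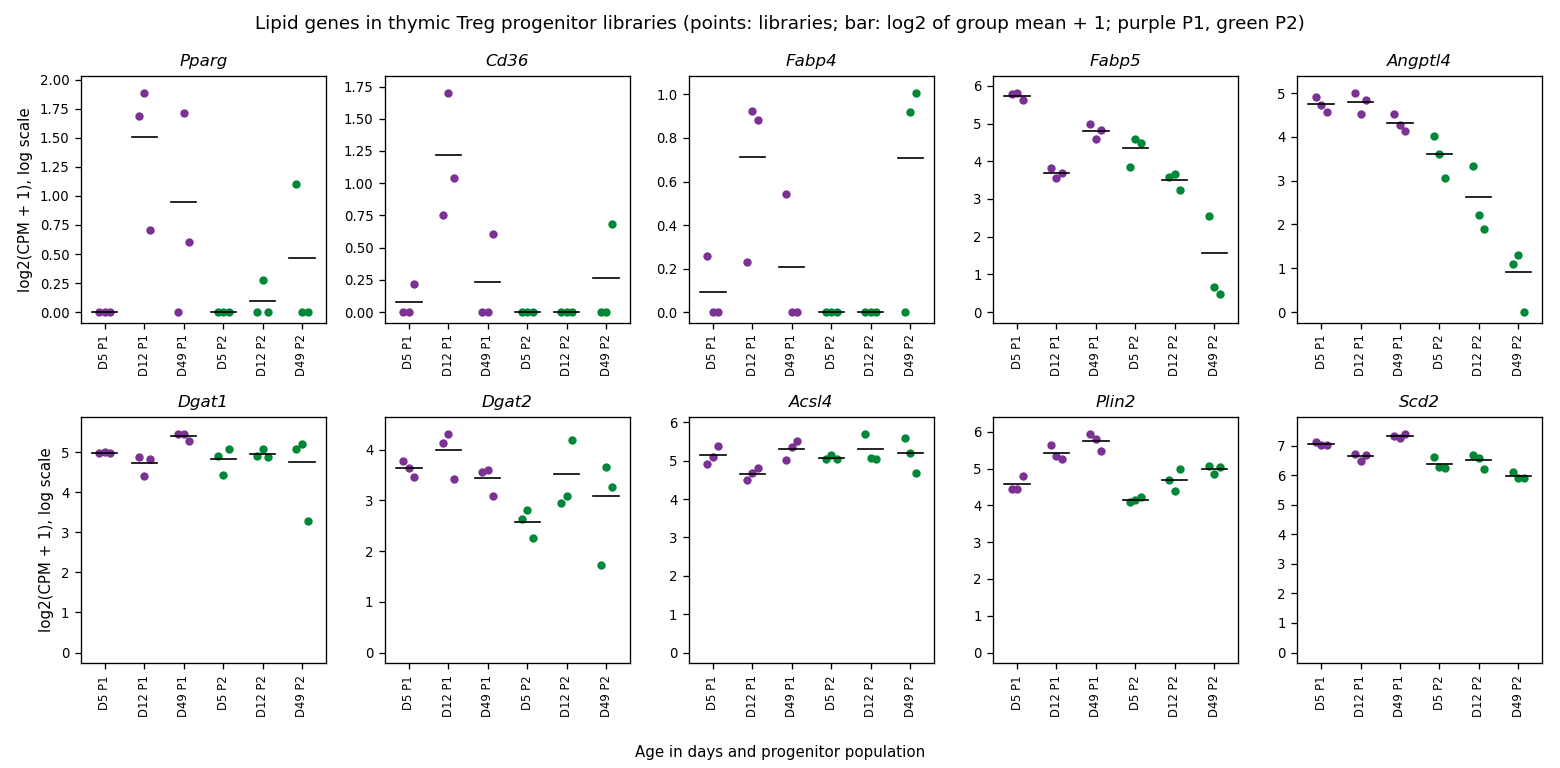
Level of each gene in every thymic progenitor library, as log2(CPM + 1) on the y axis, by age and population on the x axis. Points are libraries, purple for P1 and green for P2, and bars are log2 of the group mean + 1. The Angptl4 mean is lower in P2 than in P1 at each age, and Fabp5 and Angptl4 are lowest in D49 P2.

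P2 was compared with P1 at each age, and every call among the 8 tested genes was lower in P2. Over all genes, 1234 of 2232 calls at D5, 3497 of 6085 at D12 and 1900 of 4341 at D49 were lower in P2. At D5 2 of 8 passed (15.2% of genes): Scd2, at 98.3, 75.9 and 75.0 CPM against 138, 130.0 and 129 (-0.64 ± 0.130, adjusted p = 0.00159), and Fabp5 (-1.39 ± 0.338, adjusted p = 0.00663, lost without D5 P2 replicate 1 with adjusted p = 0.057). At D12 2 of 8 passed (41.4% of genes): Angptl4, at 9.17, 3.64 and 2.72 CPM against 30.8, 22.0 and 27.6 (-2.51 ± 0.422, adjusted p = 0.000102), with -3.17 without D12 P2 replicate 1, and Plin2 (-0.87 ± 0.197, adjusted p = 0.00169). At D49 4 of 8 passed (29.5% of genes). Scd2 read 68.7, 59.2 and 58.8 CPM against 159, 153 and 168 (-1.19 ± 0.133, adjusted p = 1.93e-06). Fabp5 (-3.72 ± 0.446, adjusted p = 4.33e-06) and Angptl4 (-4.38 ± 0.560, adjusted p = 9.3e-06) differed most. Without D49 P2 replicate 1 the Fabp5 value was -5.52, and without replicates 2 and 3 together -2.45, while Angptl4 was -5.08 without replicate 2 and -3.71 without replicate 3. Plin2 (-0.60 ± 0.196, adjusted p = 0.0258) was lost without D49 P1 replicate 1 or 2 or D49 P2 replicate 2 (adjusted p = 0.0631 to 0.101). Acsl4 ran from 21.4 to 50.8 CPM over all thymic libraries and passed at no age.

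The change from D5 to D49 differed between P2 and P1 for 1 of the 8 genes (0.374% of all genes passed). For Angptl4 the P2 change was more negative by 3.22 on the log2 scale (-3.22 ± 0.705, adjusted p = 0.0499), at the very edge of the threshold and lost in 12 of 18 alternatives, including leaving out any D5 or D49 P1 library (adjusted p up to 0.145). The same term for Fabp5, -2.33 ± 0.566 (adjusted p = 0.0806), did not pass, but passed with DESeq2 (adjusted p = 0.00344), without a filter on low counts (2.36e-05) and without D49 P2 replicate 1 (-4.14, adjusted p = 4.65e-05). For Plin2 it was -0.19 ± 0.283 and did not pass.

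Other genes of the pathway were compared between the progenitors, where 15.2% of all genes passed at D5, 41.4% at D12 and 29.5% at D49. Of 11 tested genes of fatty acid synthesis and desaturation, 0 were higher and 4 lower in P2 at D5, 2 higher and 5 lower at D12, and 2 higher and 3 lower at D49 (medians -0.33, -0.40 and -0.42). Fads1, a fatty acid desaturase, was lower at all 3 ages (57.8 to 22.2 CPM at D5, 41.7 to 15.8 at D12 and 40.2 to 11.6 at D49), and the fatty acid synthase gene Fasn fell from 175 to 84.0 CPM at D5 and from 145 to 48.5 at D49. Of 6 tested activating enzymes 3 at D5, 3 at D12 and 2 at D49 exceeded P1, and 2 were lower at D12, with Acss2 at 130.0, 163 and 134 CPM against 75.2, 54.5 and 70.6 in P1. Of 12 tested uptake genes Scarb1, the high-density lipoprotein receptor, was lower in P2 at each age (55.2 to 17.6, 30.9 to 9.01 and 25.1 to 6.60 CPM).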

How the data were processed

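Messenger RNA was sequenced from 50 low-input libraries (18 thymic, 32 peripheral). The authors deposited whole-number read counts per gene symbol with no normalisation. Per the submitters' processing notes STAR 2.7.3a, the mm10 build and featureCounts were used. Annotation and strand setting are not stated in the sources used, and 96.2% of symbols match GENCODE M21. Groups were read from sample titles. Counts were tested with edgeR 4.0.16 (R 4.3.3): TMM factors, filterByExpr (minimum count 10, minimum total 15), the quasi-likelihood F test and Benjamini-Hochberg adjustment over all tested genes, at a threshold of 0.05. Thymic contrasts came from 1 fit of 18 libraries, contrasts between tissues from 1 fit of 32, and DT against PBS from a fit within each tissue, 21 comparisons in all. Each SE follows from the fold change and its F statistic (|log2 value| / √F). Library totals ran from 2521078 to 6981037 counts. A group at 0 was given a limit of 3 counts, which covers counting error only. On counts simulated for VAT against spleen (17731 genes), changes were set only in genes averaging at least 10 CPM over the fitted libraries. Of these, 98% of genes changed 4-fold and 60% of those changed 2-fold were recovered. Genes below that level, such as Angptl4, Cd36 and Fabp4, are not covered by these shares.

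The members and gene lists were chosen with earlier results of these data known. All members were named, and from each list up to 4 genes per comparison, taken from those that passed with the smallest adjusted p. Likeness was searched for members with a group mean of at least 20 CPM among genes of at least 10 CPM. Alternatives were RLE size factors, no filter on low counts, a replicate block, DESeq2 1.42.0, only the compared libraries (or 1 fit of all peripheral libraries for DT against PBS), and each library left out in turn. Leaving out both D49 P2 replicates 2 and 3 was added after seeing the data. No library was left out of the fits reported as results. Results for some pathway genes are not reported here.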

Additional observations from a re-analysis of the deposited data

Results flagged for a closer look

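Cd36 in DT-labelled VAT had 1 library far from the other 3: replicate 7 read 13.2 CPM (48 counts), while the others read 0.203, 0.218 and 0 CPM. The same library had the high sums of fibroblast (563 CPM) and macrophage markers (119 CPM), and their part in the Cd36 value was not tested. Tests of this kind were run only in the PBS-labelled and DT-labelled VAT groups, which have 4 libraries each, and no other group was screened. For normally spread values, chance is expected to pick out about 1 in 20. That rate was not checked for counts as low as these. Of the 20 gene-by-group tests, this was the 1 picked out.

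The D49 against D5 change of Angptl4 differed between P2 and P1 progenitors by -3.22 on the log2 scale (SE 0.705, edgeR adjusted p = 0.0499). All 3 D49 P2 libraries (1.15, 1.48 and 0 CPM) lay below all 3 D5 P2 libraries (7.32 to 15.3 CPM), and all 3 D49 P1 libraries (16.5 to 22.0 CPM) lay below all 3 D5 P1 libraries (22.8 to 28.9 CPM).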

How the results depend on the processing

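Of 52 calls of single members, 37 kept their call and direction in every alternative run for them (10 to 18 each). Over all alternatives for single members, 2002 kept both, 76 lost the call, 51 gained one and 0 reversed. The number of members called moved by over 1.5 times in the following cases, and smaller moves, such as 2 in place of 3 for D12 against D5 in P1 on leaving out any 1 library, are not listed. With only the compared libraries it was 3 in place of 5 for ear skin against spleen and 3 in place of 5 for liver against spleen (both PBS), 8 in place of 5 for ear skin against spleen (DT), 3 in place of 1 for D49 against D5 in P1, 1 in place of 0 for D12 against D5 in P2, 4 in place of 2 for P2 against P1 at D5, and 0 in place of 1 for the difference of age changes between P2 and P1. Without the filter on low counts it was 1 in place of 0 for DT against PBS in ear skin, 3 in place of 0 in VAT, 2 for D49 against D5 in P1 and 3 for the difference of age changes. With DESeq2 it was 1, for DT against PBS in ear skin, 2 for D49 against D5 in P1, 1 for D12 against D5 in P2 and 2 for the difference of age changes, which had 0 without both D49 P2 replicates 2 and 3. Leaving out 1 library gave 3 to 5 for liver against spleen, 3 to 4 for VAT against spleen (DT), 0 to 1 for D12 against D5 in P2, 1 to 2 for P2 against P1 at D5 and 0 to 2 for the difference of age changes. The cause was not tested.

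In no comparison did all same-numbered libraries deviate together (correlations from -0.189 to 0.154). For liver against spleen (PBS), 2 of 3 libraries correlated best with the one of their own number. Same-numbered correlations there were -0.0296 to 0.154, against -0.179 to 0.0684 for other pairs. With the replicate block, VAT against spleen (DT) had 3 members called in place of 5, and the block also changed single calls: Scd2 in VAT against spleen (PBS) passed (-1.48, adjusted p = 0.0168), Angptl4 in P2 against P1 at D5 passed (adjusted p = 0.0241), Fabp4 in ear skin against spleen (PBS) was lost (0.0626), and Fabp5 and Acsl4 in VAT against spleen (DT) were lost (0.0613 and 0.14). Over all genes, the number called ranged from 1626 to 3126 (2649 as reported) for VAT against spleen (PBS), from 1099 to 6020 (3788) for D49 against D5 in P2, from 1210 to 6444 (4341) for P2 against P1 at D49, from 3 to 1205 (55) for the difference of age changes, and from 0 to 347 (15) for DT against PBS in VAT. Cd36, Fabp4 and thymic Pparg rest on too few counts to show moderate differences.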
